A study of Mus musculus with 8 samples.

Results

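Caveolin 1, the protein that Cav1 encodes, binds a set of signalling proteins, and 9 genes for such proteins were followed here through 3 groups of mouse brains. They are the nitric oxide synthases Nos1 and Nos3, the growth factor receptors Egfr and Erbb2, the receptors Tgfbr1, Tgfbr2 and Bmpr2 of the TGF-beta family, and the kinases Src and Fyn. They were taken by gene name from a table of 34299 genes, and all 9 were found and all 9 were counted in every library. The study sequenced polyadenylated RNA of whole brain in bulk, in 3 groups: fetal brain of wild-type mice (WT) at day 15 of gestation with 3 libraries, fetal brain of Cav1 knockout mice (KO) of that age with 3, and aging KO brain at week 70 with 2. Both KO groups carry the Cav1 knockout, so that genotype was compared at day 15 only. The KO libraries of the different ages were compared for age, and a comparison of week 70 KO with day 15 WT changes age and genotype together, which cannot be told apart. Week 70 WT brain was not analysed here. The labels describe the fetal samples as biological replicates and do not give the litter, strain, design of the knockout allele or number of animals behind a sample. The p-values therefore measure the spread between these samples, which may be technical in part.

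Caveolin 1 is the main coat protein of caveolae, small flask-shaped pits of the plasma membrane that are abundant in endothelial cells, smooth muscle and fibroblasts and scarce in neurons. A short stretch of the protein, the scaffolding domain, binds endothelial nitric oxide synthase, receptor tyrosine kinases and Src family kinases, and in many cell types it holds them in a less active state. TGF-beta receptors are also taken up through caveolae, a route that leads to their degradation. That binding acts on proteins, whereas the values here are levels of messenger RNA.

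The Cav1 transcript had 367, 218 and 329 counts in the WT libraries, 0, 3 and 1 in the day 15 KO libraries and 1 and 5 in the week 70 libraries, so that no library went against its genotype label. Total counts lay between 14110031 and 20833397, and each day 15 KO library was shallower than each WT library. The labels give no batch, so that a batch and the genotype, or a batch and the age, cannot be told apart. Replicate 1 of WT stood apart in markers of fibroblasts and meninges, with a summed normalised level (CPM, the read count scaled to a common library size) of 4517 against 309.8 and 519.2 in the other WT libraries. The week 70 libraries differed in sex-linked transcripts: Xist had 7969 and 4 counts and the Y-linked Ddx3y 0 and 1137, while every fetal library had at least 54531 counts of Xist and at most 3 of Ddx3y.

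Per kilobase of exon, the kinases were the most abundant of the 9 genes and Egfr was among the least abundant. In WT day 15 brain the mean normalised CPM per kilobase was 52.1 for Fyn, 40.5 for Src, 19.7 for Tgfbr1, 12.5 for Bmpr2 and 4.62 for Nos1, and no neighbours in that order overlapped between libraries. Nos3 at 3.35, Erbb2 at 2.99, Tgfbr2 at 2.81 and Egfr at 1.50 followed, each overlapping the next. In day 15 KO brain Fyn stayed first at 29.8 CPM per kilobase, and Tgfbr1 at 16.7 stood above Src at 14.1. The low end there was held by Egfr at 0.805, Erbb2 at 0.766 and Tgfbr2 at 0.642, whose libraries overlapped. At week 70 Src at 37.5 and Fyn at 35.6 CPM per kilobase overlapped, Tgfbr2 had moved up to 4.70, next to Tgfbr1 at 5.36, and Erbb2 was lowest at 0.808.

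Some of the genes shared a profile over the 8 libraries and others were near opposites. Likeness was measured as the root mean square difference in log2 CPM over the 8 libraries after each gene was centred on its own mean. The closest pair was Nos1 and Src, with a difference of 0.120, followed by Bmpr2 and Fyn at 0.149 and Nos3 and Egfr at 0.208. The most distant pair was Tgfbr1 and Tgfbr2 at 1.76, the subunits of one receptor complex. Since the libraries fall into 3 groups, these distances mostly describe the group means and are given as a description. The profiles carry no correction for transcript length and GC content. A fit with such an offset, described further on, set these 3 close pairs apart with age. Between the KO ages its log2 fold changes were 0.89 for Nos1 and 0.27 for Src, and 1.12 for Bmpr2 and -0.02 for Fyn. For Nos3 and Egfr they were -0.29 and 1.07. For genotype at day 15 the same pairs had -0.67 and -0.64, -0.59 and -0.53, and -0.14 and -0.57. The promoters of the closest and the most distant pair are printed here to set sequence beside profile. Each window runs from 250 bases before to 50 after a RefSeq transcription start on GRCm38.p6, read 5′ to 3′ on the gene's strand. Capitals mark the GC box, GGGCGG or its complement CCGCCC, a motif that Sp family factors bind. The windows are chr5:117866589-117866888 (+) for Nos1, chr2:157424043-157424342 (+) for Src, chr4:47352972-47353271 (+) for Tgfbr1 and chr9:116175314-116175613 (-) for Tgfbr2.
Nos1: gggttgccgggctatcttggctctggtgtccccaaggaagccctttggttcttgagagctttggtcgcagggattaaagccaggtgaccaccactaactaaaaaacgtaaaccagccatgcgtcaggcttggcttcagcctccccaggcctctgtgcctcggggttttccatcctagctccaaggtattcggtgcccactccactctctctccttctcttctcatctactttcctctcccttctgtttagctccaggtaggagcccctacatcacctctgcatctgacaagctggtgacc
Src: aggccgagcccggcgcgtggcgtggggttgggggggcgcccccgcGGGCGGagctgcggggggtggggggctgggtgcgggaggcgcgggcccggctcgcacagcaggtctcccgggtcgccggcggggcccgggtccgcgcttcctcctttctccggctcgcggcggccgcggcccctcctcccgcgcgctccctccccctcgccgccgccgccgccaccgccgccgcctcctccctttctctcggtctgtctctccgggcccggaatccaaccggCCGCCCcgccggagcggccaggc
Tgfbr1: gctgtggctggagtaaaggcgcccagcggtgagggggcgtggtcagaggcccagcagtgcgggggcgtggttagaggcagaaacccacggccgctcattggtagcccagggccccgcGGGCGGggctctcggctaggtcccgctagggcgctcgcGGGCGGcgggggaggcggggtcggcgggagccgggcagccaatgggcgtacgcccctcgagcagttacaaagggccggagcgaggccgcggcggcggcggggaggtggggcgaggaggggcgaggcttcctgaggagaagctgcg
Tgfbr2: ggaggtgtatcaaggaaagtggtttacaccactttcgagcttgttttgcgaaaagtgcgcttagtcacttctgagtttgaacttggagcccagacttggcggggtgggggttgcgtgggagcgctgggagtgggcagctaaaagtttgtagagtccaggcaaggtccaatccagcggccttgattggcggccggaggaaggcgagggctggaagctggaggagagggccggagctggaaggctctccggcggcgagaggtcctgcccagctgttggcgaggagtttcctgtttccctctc
The closest pair did not share base composition: the Src window held 47 CpG dinucleotides at 82.3% GC and 2 GC boxes, and the Nos1 window 6 CpG at 54.7% GC and no GC box. The Tgfbr1 window had 34 CpG, 2 GC boxes and 2 CCAAT boxes, and the Tgfbr2 window 15 CpG, no GC box and 2 CCAAT boxes. RefSeq windows were found for 8 of the 9 genes, all except Nos3. In the first window of each, 5 held a GC box, 4 held CCAAT or ATTGG and 0 held TATAAA or TTTATA. Among all 32851 windows of that length the shares were 35.7%, 37.4% and 13.6%, and the median window had 7 CpG. The Nos1 window and the Src window lie inside the annotated genes, which on GRCm38 span chr5:117781032-117958840 and chr2:157418444-157471862, so that other starts of these genes exist. A match is a description of letters, not a site in use.

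In fetal brain without Cav1, transcripts of 8 of the 9 binding partners were lower than in WT, and none was higher. Tgfbr2, Erbb2, Nos1 and Src fell most, to between 0.244 and 0.368 of the WT level, Nos3, Egfr, Fyn and Bmpr2 fell less, and Tgfbr1 did not pass the test. In normalised CPM, all 3 KO libraries were below all 3 WT libraries for each of the 9 genes. These counts have to be read against a large background: with edgeR's quasi-likelihood test and Benjamini-Hochberg adjustment at 0.05, 62.6% of the 19147 genes tested were called, 32.5% as lower and 30.1% as higher. Lower without overlap were 38.7% of all genes tested. The median log2 fold change, called log2 change from here on, was -0.93 for the 9 genes, beside 0.03 over all genes tested.

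**Figure D1:**
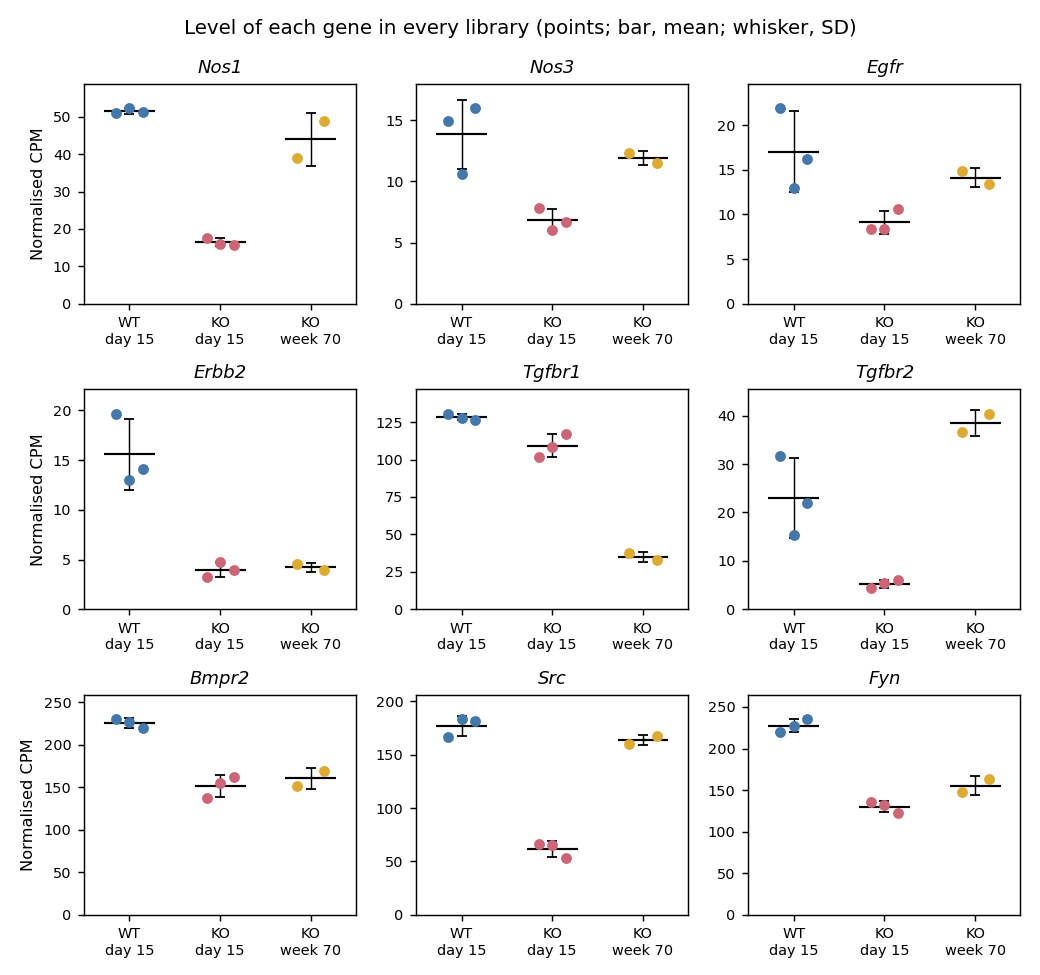
Level of the 9 genes in each of the 8 libraries, 1 panel per gene. The vertical axis is normalised CPM from 0, points are libraries, bars are group means and whiskers are SD (n = 3, 3 and 2). In each panel the 3 KO day 15 points lie below the 3 WT points, Tgfbr2 is highest and Tgfbr1 lowest at week 70, and the Erbb2 points of both KO groups overlap.

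The nitric oxide synthases make nitric oxide from arginine. Nos1, the neuronal enzyme, stood at 51.0, 52.3 and 51.2 CPM in the WT libraries and at 17.7, 15.9 and 15.8 in the day 15 KO libraries. The WT libraries lay close together and far above every KO library. The log2 change was -1.56 (SE 0.074, edgeR adjusted p 5.58e-08). Nos1 in cortex is strongest in a class of inhibitory interneurons. The 6 markers chosen (Sst, Npy, Chodl, Gad1, Gad2 and Tacr1) summed to 336.9 to 373.6 CPM in WT and 325.7 to 350.0 in KO. Of the 6, 1 was called lower, and with the length and GC offset 1 was called higher and 0 lower. Gad1 and Gad2 made up most of these sums, with 2918 and 2950 counts in WT replicate 1 beside 853 for Sst. The part of such cells in the Nos1 result was not tested. Nos3, the endothelial enzyme that caveolin 1 is best known to restrain, had 14.9, 10.6 and 16.0 CPM in WT and 7.84, 6.02 and 6.66 in KO. Its log2 change was -0.93 (SE 0.170, edgeR adjusted p 7.49e-04). Nos2, the inducible enzyme, was low, with 28 to 47 counts per WT library and 9 to 14 per KO library. Its log2 change of -1.41 (edgeR adjusted p 0.00334) became -0.83 and lost its call with an offset for transcript length and GC content, described further on (edgeR adjusted p 0.0508).

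Endothelial markers were lower along with Nos3 in the fit without the offset. Their summed level (Pecam1, Cdh5, Cldn5, Kdr, Flt1, Tie1, Tek, Emcn, Esam and Erg) was 219.8 to 306.8 CPM in WT and 71.4 to 89.1 in day 15 KO, and 9 of the 10 were called lower. With the offset 9 of the 10 stayed lower, with a median log2 change of -0.98. Nos3 was then at -0.14 and was not called (edgeR with offset, adjusted p 0.509). Pericyte and smooth muscle markers summed to 144.6 to 191.8 CPM in WT and 128.2 to 139.4 in KO. Of 7 tested, 5 were called lower and 1 higher, with a median log2 change of -1.66 (-0.88 with the offset). Rgs5 made up most of the KO sum, with 1593 to 1950 counts per KO library and 1283 to 1538 per WT library, while Pdgfrb had 1067, 654 and 858 counts in the WT libraries and 166, 171 and 164 in the KO ones. No marker of these lists was at 0 across a group. In bulk RNA, fewer cells of a type and less RNA per cell cannot be told apart, and the part of these cells in the Nos3 result was not tested. Markers of other cells moved with the genotype as well. Erythroid markers summed to 1051 to 1334 CPM in WT and to 3546 to 4386 in KO, with 6 of 7 called higher and 1 lower. Progenitor markers summed to 1664 to 1752 CPM in WT and to 1296 to 1394 in KO, with 7 of 8 called lower and 1 higher. The higher one, Fabp7, made up most of the KO sum, with 13329 to 13682 counts per KO library and 5293 to 6107 per WT library. Nes, one of those called lower, had 6195, 6385 and 5422 counts in the WT libraries and 954, 966 and 877 in the KO ones. Those of oligodendrocyte precursors summed to 222 to 264 CPM in WT and to 109.8 to 140.3 in KO, with 5 of 5 called lower. With the offset 3 of 5 of these and 5 of 8 progenitor markers were called lower, and 1 progenitor marker higher. Astrocyte markers summed to 317 to 352 CPM in WT and 132 to 148 in KO, with 3 of 6 called lower and 1 higher. Microglial markers summed to 37.25 to 65.35 CPM and 21.65 to 24.63, with 3 of 6 lower and 1 higher. Neuron markers summed to 5527 to 6123 CPM and 4501 to 4550, with 4 of 8 lower and 2 higher. Their part in the results of the 9 genes was not tested.

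Egfr and Erbb2 are receptor tyrosine kinases of the same family, the first a receptor for EGF and related ligands and the second a partner without a ligand of its own. Egfr had 21.9, 12.9 and 16.2 CPM in WT and 8.37, 8.39 and 10.6 in KO. WT replicate 2 came close to the highest KO library without overlap. The log2 change was -0.81 (SE 0.185, edgeR adjusted p 0.00312). Erbb2 had 19.7, 13.0 and 14.1 CPM in WT and 3.29, 4.75 and 3.93 in KO, a log2 change of -1.87 (SE 0.191, edgeR adjusted p 1.07e-05). Erbb3, which binds neuregulins and signals with Erbb2, had 95, 21 and 18 reads in the WT libraries and 5, 19 and 8 in the KO ones, a log2 change of -1.75 (edgeR adjusted p 0.0388) in which WT replicate 1 stood far above the other WT libraries. With the length and GC offset that call was lost, at -1.11 (edgeR adjusted p 0.171). Erbb4, the neuregulin receptor of interneurons, averaged 101.3 ± 2.64 CPM in the WT and 83.0 ± 3.73 in the KO libraries (SD, n = 3 each) and had a log2 change of -0.20 (edgeR adjusted p 0.0133).

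In TGF-beta signalling the type II receptor Tgfbr2 binds the ligand and activates the type I receptor Tgfbr1, which phosphorylates Smad2 and Smad3. Tgfbr2 had 31.6, 15.3 and 22.0 CPM in WT and 4.43, 5.36 and 5.97 in KO. The WT libraries were widely spread, yet the lowest of them was above every KO library. The log2 change was -2.04 (SE 0.239, edgeR adjusted p 3.08e-05). Tgfbr1 had 130.7, 128.0 and 126.7 CPM in WT and 101.8, 108.4 and 117.1 in KO. The groups were apart, but the log2 change of -0.15 did not pass the test (SE 0.065, edgeR adjusted p 0.0718). This small difference depends on the setting: it was called lower by DESeq2 and without a filter on low counts, and it was 0.03 with upper-quartile scaling and 0.01 with protein-coding genes only. Bmpr2, the type II receptor for bone morphogenetic proteins (BMP), had 230.1, 227 and 219 CPM in WT and 137, 155 and 162 in KO, a log2 change of -0.48 (SE 0.073, edgeR adjusted p 1.88e-04).

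Related receptors did not all behave like Tgfbr2. Tgfbr3, the co-receptor that presents ligand to Tgfbr2, averaged 9.81 ± 3.01 CPM in the WT and 3.96 ± 0.510 in the KO libraries, a log2 change of -1.22 (edgeR adjusted p 6.70e-04). Acvrl1, an endothelial type I receptor, averaged 9.95 ± 2.52 CPM in the WT and 3.55 ± 0.122 in the KO libraries, a log2 change of -1.40 (edgeR adjusted p 1.23e-04) that was -0.76 with the offset. The type I BMP receptors Bmpr1a and Bmpr1b did not pass the test, with log2 changes of 0.15 and 0.10 (edgeR adjusted p 0.0872 and 0.625). WT replicate 1 was the highest library in Tgfbr2, Egfr and Erbb2 and also the one with the most fibroblast and meningeal RNA. That marker sum was 309.8 to 4517 CPM in WT and 60.7 to 128.9 in KO, with 6 of 8 markers called lower. Without WT replicate 1 the log2 changes were -1.76 for Tgfbr2, -0.61 for Egfr and -1.69 for Erbb2, each still called by edgeR (adjusted p 5.67e-06, 0.00523 and 4.60e-06). The remaining WT libraries, at 309.8 and 519.2 CPM in that marker sum, were still above every KO library. Leaving out WT replicate 1 therefore does not remove the difference in these markers, and their part in the 3 results was not tested.

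Src and Fyn are membrane-bound tyrosine kinases, and both can phosphorylate caveolin 1. Src had 166, 183 and 182 CPM in WT and 66.0, 65.4 and 52.8 in KO. No KO library came near the lowest WT library. The log2 change was -1.44 (SE 0.085, edgeR adjusted p 1.99e-07). Fyn, which carries the Reelin signal in migrating neurons and later acts in myelination, had 219, 228 and 235 CPM in WT and 135, 132 and 122 in KO, a log2 change of -0.72 (SE 0.061, edgeR adjusted p 2.53e-06). Yes1, the closest relative of both, was higher in KO, at 41.3 ± 2.01 against 31.4 ± 0.806 CPM (SD, n = 3 each) and a log2 change of 0.48 (edgeR adjusted p 1.53e-04). Lyn and Lck, Src family kinases of blood cells, did not pass the test, with log2 changes of -0.28 and 0.33 (edgeR adjusted p 0.174 and 0.107), but with the offset Lck was called higher at 0.58 (edgeR adjusted p 0.0129).

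**Figure D2:**
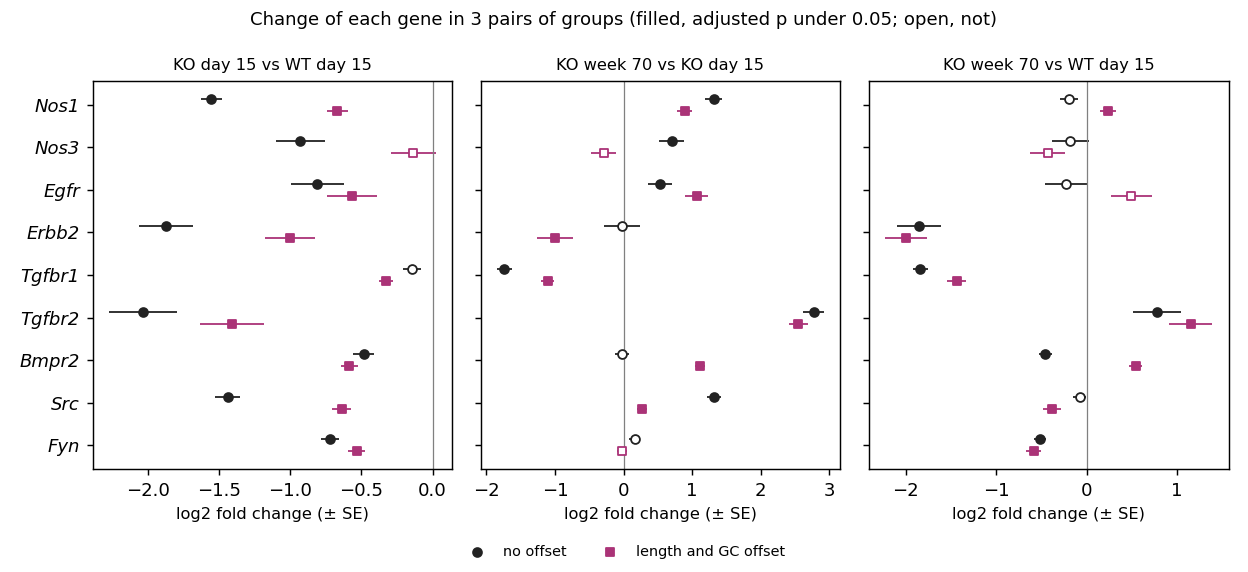
Log2 fold change with SE for each of the 9 genes in the 3 comparisons, without (circles) and with (squares) an offset for transcript length and GC content. Filled symbols have an edgeR adjusted p under 0.05. At day 15 the offset brings Nos1, Src and Erbb2 closer to 0 and takes the call from Nos3, and at week 70 against KO day 15 it moves Bmpr2 from -0.02 to 1.12.

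Genotype differences at day 15 followed transcript properties across the whole table, and the 9 genes differ in those properties. Over 19050 genes the log2 change had a rank correlation of -0.37 with transcript length and -0.48 with GC content, given as a description across genes, which are not independent replicates. Tgfbr1 and Bmpr2, with the smallest log2 changes, had the lowest GC content of the 9 at 41.0% each, while Src had 59.3%, Nos3 58.2%, Erbb2 57.3% and Nos1 53.8%. The order did not hold throughout: Tgfbr2, which fell most, had 49.6%, beside 49.3% for Fyn and 44.4% for Egfr. A fit with each library's trend on both properties as an offset gave smaller differences for most of the genes. With it the log2 change was -0.67 for Nos1, -0.64 for Src, -1.00 for Erbb2, -1.41 for Tgfbr2, -0.57 for Egfr, -0.53 for Fyn and -0.59 for Bmpr2, all called by edgeR. Nos3 lost its call at -0.14 (edgeR with offset, adjusted p 0.509), and Tgfbr1 gained one at -0.33 (edgeR with offset, adjusted p 2.46e-04). The count was again 8 lower and 0 higher, beside a background of 51.0% of genes called, 25.1% lower and 26.0% higher. Whether length and GC reflect the libraries or the brains was not tested.

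Ratios inside a library do not depend on its depth or scaling, and the 4 pairs of related genes shifted against each other. Tgfbr1 to Tgfbr2 read counts stood at 4.13, 8.36 and 5.76 in WT, at 23.0, 20.2 and 19.6 in day 15 KO and at 1.02 and 0.812 at week 70. The 3 groups were fully apart, with geometric means of 5.84, 20.9 and 0.910. Egfr to Erbb2 counts stood at 1.11, 0.996 and 1.15 in WT, at 2.54, 1.77 and 2.70 in day 15 KO and at 3.30 and 3.42 at week 70, again without overlap. Fyn to Src counts stood at 1.32, 1.24 and 1.30 in WT, at 2.05, 2.02 and 2.32 in day 15 KO and at 0.919 and 0.977 at week 70, without overlap. Nos1 to Nos3 counts stood at 3.42, 4.93 and 3.20 in WT and 2.26, 2.64 and 2.38 in day 15 KO, and the week 70 values of 3.16 and 4.26 overlapped WT. A two-sided exact permutation test gave p = 0.1 for 10 of the 12 comparisons, the smallest p that 3 against 3 or 3 against 2 libraries can reach. The remaining ones were Egfr to Erbb2 between the KO groups (exact p = 0.2) and Nos1 to Nos3 between week 70 and WT (exact p = 0.9). After Benjamini-Hochberg adjustment over the 12 these exact p-values became 0.12, 0.218 and 0.9, so that none could pass 0.05 in this design. Length and GC differ within a pair, and the part of those trends in the ratios was not tested.

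**Figure D3:**
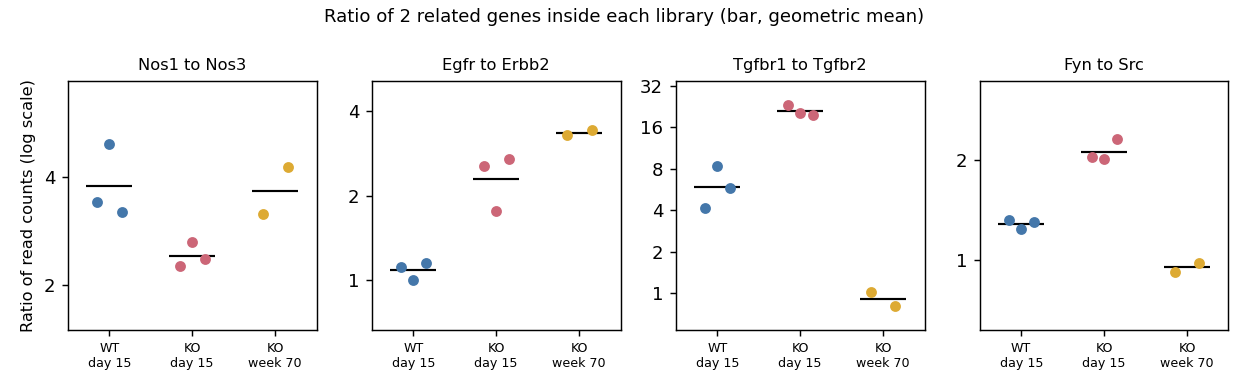
Ratio of read counts of 2 related genes inside each of the 8 libraries, on a log scale, with group geometric means as bars. Tgfbr1 to Tgfbr2 is 5.84 in WT, 20.9 in day 15 KO and 0.910 at week 70, and Nos1 to Nos3 is the one ratio with overlap between week 70 and WT.

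The genes around these partners were also lower more often than higher in the fetal KO brain. Of 130 tested genes on 5 pathway lists, 74 were called lower and 15 higher by edgeR, with a median log2 change of -0.53, beside the 32.5% and 30.1% over all genes. With upper-quartile scaling, which moved the median of all genes from 0.03 to 0.20, the pathway split was 65 lower and 25 higher, and over all genes 4915 lower and 7627 higher. With the length and GC offset it was 60 lower and 20 higher, beside 25.1% and 26.0% over all genes.

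For TGF-beta signalling 22 of 26 genes were lower and 0 higher, with a median of -1.18 (-0.66 with the offset). The list counts here stand beside 32.5% lower and 30.1% higher over all genes, and 25.1% and 26.0% with the offset. Ski, a repressor of Smad-driven transcription, had 3780, 3083 and 3084 reads in the WT libraries and 623, 637 and 461 in the KO ones, a log2 change of -2.24 (SE 0.109, edgeR adjusted p 6.23e-08). Smad3, the transcription factor that Tgfbr1 activates, fell by 1.78 on the log2 scale (SE 0.118, edgeR adjusted p 4.62e-07). With the offset the log2 changes were -1.41 for Ski and -1.12 for Smad3. For EGF and ErbB signalling 19 of 26 were lower and 0 higher, with a median of -0.64; with the offset 14 were lower and 4 higher. Gab1, the docking protein of activated EGF receptors, went from 54.8 ± 4.02 to 14.4 ± 1.05 CPM (SD, n = 3 each), a log2 change of -1.84 (edgeR adjusted p 4.28e-08). Ptpn11, the phosphatase that Gab1 recruits, had a log2 change of -1.03 (edgeR adjusted p 9.90e-07) and of -0.36 with the offset. In the BMP list 10 of 24 were lower and 1 higher, and with the offset 10 and 2. The type I receptor Acvr1 and the effector Smad1 fell, with log2 changes of -1.06 and -0.86 (edgeR adjusted p 2.91e-06 and 2.27e-06). The gene that rose was Id2, a BMP target, with a log2 change of 0.73 (edgeR adjusted p 3.06e-06).

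Among Src family kinases and their regulators 14 of 26 were lower and 4 higher, with a median of -0.39. With the offset 10 were lower and 7 higher, with a median of -0.10. Over all genes tested 32.5% were lower and 30.1% higher, and with the offset 25.1% and 26.0%. Reln, the secreted ligand upstream of Fyn, went from 349 ± 3.70 to 96.9 ± 7.81 CPM (SD, n = 3 each), a log2 change of -1.76 (edgeR adjusted p 2.75e-08). Bcar1, an adaptor that Src phosphorylates, had a log2 change of -1.44 (edgeR adjusted p 2.75e-08). With the offset the values were -1.06 for Reln and -0.72 for Bcar1. Cdk5, a neuronal kinase of the same migration pathways, was called higher at 0.34 (edgeR adjusted p 3.44e-04). The nitric oxide list was split about as all genes were, with 9 of 28 lower, 10 higher and a median of -0.11. With the offset 8 were lower and 7 higher. Calm2, one of the genes for the calmodulin that switches on Nos1 and Nos3, went from 408 ± 23.6 to 812 ± 17.5 CPM, a log2 change of 1.08 (edgeR adjusted p 1.78e-07) that was 0.21 with the offset. Dynll1, a dynein light chain that binds Nos1 protein, had a log2 change of 1.06 (edgeR adjusted p 6.89e-07) and 0.93 with the offset. Slc7a1, an arginine transporter, and Ddah1, which degrades methylated arginines that block the synthases, fell, with log2 changes of -2.00 and -1.20 (edgeR adjusted p 2.10e-08 and 1.63e-07), and Slc7a1 was at -1.29 with the offset.

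**Figure D4:**
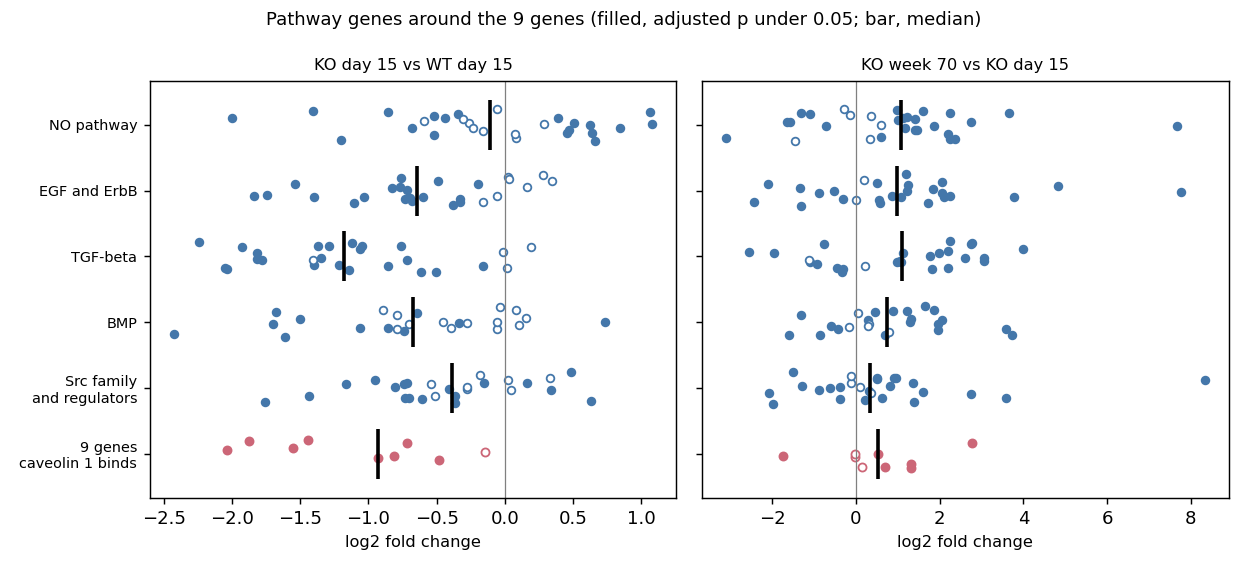
Log2 fold changes of the tested genes on 5 pathway lists and of the 9 genes, for genotype at day 15 (left) and age within KO (right). Each point is a gene, filled where the edgeR adjusted p is under 0.05, and bars are medians. In fetal KO brain the TGF-beta and EGF lists have no filled point above 0, and at week 70 the medians of all 5 lists are above 0.

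Between fetal and week 70 KO brain, 5 of the 9 genes were higher at week 70, 1 was lower and 3 did not pass the test. Tgfbr2 rose most and Tgfbr1 fell, so that the receptor subunits moved in opposite directions. Nos1, Src, Nos3 and Egfr were higher, and the week 70 values of Erbb2 and Bmpr2 overlapped those of fetal KO brain. The background was larger still: edgeR called 82.0% of 20000 genes, 37.6% higher and 44.4% lower. The median log2 change of the 9 genes was 0.53, beside -0.19 over all genes tested. With upper-quartile scaling, which moved that median to -0.44, the split of the 9 genes was 4 higher and 2 lower. Over all 20000 genes the split was then 6488 higher and 9969 lower. With the length and GC offset 5 were higher and 2 lower, beside 78.7% of all genes called, 39.6% higher and 39.2% lower. The fetal KO libraries are those of the genotype comparison, so that the results for age and genotype are not independent. Over 19896 genes the log2 change for age had a rank correlation of 0.20 with transcript length and 0.28 with GC content. These signs are opposite to those for genotype at day 15. For week 70 against WT the correlations were 0.06 and 0.10. The part of these trends in the age results was not tested.

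Tgfbr2 had 36.5 and 40.4 CPM at week 70, above every fetal library of either genotype. Against fetal KO the log2 change was 2.77 (SE 0.151, edgeR adjusted p 3.58e-08). Tgfbr1 had 37.3 and 32.8 CPM, below every fetal library, and a log2 change of -1.74 (SE 0.108, edgeR adjusted p 1.05e-07). Both kept these directions with the length and GC offset, at 2.55 and -1.11. Endothelial markers also moved with age: they summed to 349.8 to 373.0 CPM at week 70, with 10 of 10 called higher than in fetal KO. Microglial markers summed to 337 to 409 CPM at week 70 against 21.7 to 24.6 in fetal KO, and astrocyte markers to 5777 to 6080 against 132 to 148. The part of these cells in the Tgfbr2 and Tgfbr1 results was not tested. Acvrl1 and Tgfbr3 were higher at week 70, with log2 changes of 3.07 and 2.24 (edgeR adjusted p 2.16e-07 and 1.42e-06), and Acvrl1 was at 2.28 with the offset.

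Nos1 had 38.9 and 49.0 CPM at week 70, well above the fetal KO libraries and below the WT libraries, with a log2 change of 1.32 (SE 0.123, edgeR adjusted p 2.71e-06). The interneuron markers summed to 1047 to 1145 CPM at week 70, with 5 of 6 called higher and 1 lower. Chodl, one of them, had 128, 149 and 111 counts in the fetal KO libraries and 31 and 5 at week 70. The part of these cells in the Nos1 result was not tested. Src had 160.4 and 167 CPM and a log2 change of 1.32 as well (SE 0.103, edgeR adjusted p 6.31e-07), which was 0.27 with the offset. Nos3 had 12.3 and 11.5 CPM and a log2 change of 0.71 (SE 0.182, edgeR adjusted p 0.00435), which turned to -0.29 and lost its call with the offset (edgeR adjusted p 0.168). Egfr had 14.9 and 13.4 CPM and a log2 change of 0.53 (SE 0.174, edgeR adjusted p 0.0156). That call was lost with upper-quartile scaling, with protein-coding genes only, and without fetal KO replicate 1 or replicate 2, while with the offset the log2 change was 1.07.

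Erbb2 had 4.51 and 3.91 CPM at week 70, inside the range of the fetal KO libraries, and a log2 change of -0.02 (SE 0.260, edgeR adjusted p 0.945). That SE allows a difference in either direction, and with the offset Erbb2 was lower at -1.00 (edgeR adjusted p 0.00608). Bmpr2 had 152 and 169 CPM, overlapping fetal KO, with a log2 change of -0.02 (SE 0.10, edgeR adjusted p 0.866) and of 1.12 with the offset (edgeR adjusted p 5.12e-07). Bmpr2 was called lower with upper-quartile scaling, at -0.27, and with protein-coding genes only, at -0.29 (edgeR adjusted p 0.0280 and 0.0202). Fyn had 147 and 163 CPM, just above the fetal KO libraries, and its log2 change of 0.16 did not pass the test (SE 0.086, edgeR adjusted p 0.106). Fyn was called higher with all 8 libraries in 1 fit, at 0.26, and without week 70 replicate 1, at 0.23 (edgeR adjusted p 0.00722 and 0.0474). For Bmpr2 and Fyn the direction thus depends on the setting. Erbb3, in contrast to its partner Erbb2, went from 0.601 ± 0.396 CPM in fetal KO (SD, n = 3) to 18.7 ± 0.429 at week 70 (SD, n = 2), a log2 change of 4.83 (edgeR adjusted p 2.08e-07). Oligodendrocyte markers, from cells in which Erbb3 is known to be strong, summed to 78.2 to 85.2 CPM in fetal KO and to 13090 to 13430 at week 70. The part of these cells in the Erbb3 result was not tested. Erbb4 and Yes1 were lower at week 70, with log2 changes of -0.30 and -1.28 (edgeR adjusted p 0.0233 and 1.83e-06), and with the offset Erbb4 was higher at 0.81 and Yes1 was at -0.65.

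Of 132 pathway genes tested for age, 79 were higher and 34 lower, beside the 37.6% and 44.4% over all genes. In the TGF-beta list 16 of 26 were higher and 8 lower. Smad3 and Ski rose by 2.77 and 2.74 on the log2 scale (edgeR adjusted p 4.44e-09 and 1.06e-08), and the activin receptors Acvr2a and Acvr2b, which are type II receptors, fell, with log2 changes of -1.95 and -2.56 (edgeR adjusted p 1.87e-08 and 5.04e-08). With the offset these values were 2.10 for Smad3, 1.89 for Ski and -1.20 for Acvr2a. In the EGF and ErbB list 17 of 26 were higher and 7 lower. Etv5, a transcription factor induced by receptor tyrosine kinases, went from 10.5 ± 1.38 to 154 ± 16.2 CPM, a log2 change of 3.78 (edgeR adjusted p 6.03e-10). Egr1, an immediate early gene, had 33, 36 and 15 counts in fetal KO and 7386 and 3878 at week 70, so that the aged libraries differed widely from each other. Its log2 change was 7.75 (SE 0.309, edgeR adjusted p 3.57e-09), and 6.82 with the offset. The ligand Nrg1 and the ubiquitin ligase Cblb were lower, with log2 changes of -1.34 and -1.32 (edgeR adjusted p 9.07e-07 and 1.25e-06).

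In the BMP list 14 of 24 were higher at week 70 and 5 lower. This count and those of the next lists stand beside 82.0% of all genes called, 37.6% higher and 44.4% lower. The ligand Bmp6 and the effector Smad9 rose by 3.59 and 3.73 on the log2 scale (edgeR adjusted p 1.42e-08 and 1.59e-07), while the effectors Smad5 and Smad1 had log2 changes of -1.59 and -0.59 (edgeR adjusted p 5.28e-08 and 4.20e-04). Bmpr1b was higher at 1.96 and Bmpr1a did not pass the test at 0.06 (edgeR adjusted p 2.55e-07 and 0.525). With the offset Bmpr1a was called higher at 0.65 (edgeR adjusted p 6.73e-05) and Bmp6 was at 2.69. In the Src list 14 of 26 were higher and 8 lower. Ptk2b, a calcium-activated kinase that works with Src, had 27, 27 and 29 counts in fetal KO and 7884 and 8540 at week 70, a log2 change of 8.33 (SE 0.127, edgeR adjusted p 4.15e-11). Grin2a, a subunit of NMDA receptors that Src and Fyn phosphorylate, had a log2 change of 3.58 (edgeR adjusted p 3.15e-09). With the offset Ptk2b was at 7.65 and Grin2a at 4.39. Reln and its receptor Lrp8 were lower, with log2 changes of -1.50 and -1.98 (edgeR adjusted p 6.98e-07 and 9.63e-08). Lyn was higher at 1.60 and Lck lower at -2.07 (edgeR adjusted p 3.41e-05 and 4.86e-04). In the nitric oxide list 18 of 30 were higher and 6 lower. Ass1, which remakes the arginine used up by the synthases, had 2, 8 and 3 counts in fetal KO and 857 and 825 at week 70 (edgeR log2 change 7.68, SE 0.236, adjusted p 5.93e-10). Qdpr, which regenerates their cofactor tetrahydrobiopterin, rose by 3.65 on the log2 scale, and Ddah2 and the cyclic GMP phosphodiesterase Pde9a had log2 changes of -3.10 and -1.56 (edgeR adjusted p 9.08e-10, 1.68e-09 and 2.68e-07). Nos2 stayed low, with 24 and 7 counts at week 70 and a log2 change of 0.60 that did not pass the test (edgeR adjusted p 0.337).

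Set against day 15 WT brain, the week 70 KO brain had 4 of the 9 genes lower, 1 higher and 4 that did not pass the test, where edgeR called 78.6% of 19465 genes, 41.9% lower and 36.7% higher. This comparison shares its libraries with the others and so adds no independent values. Erbb2 and Tgfbr1 were lowest, with log2 changes of -1.85 and -1.84 (edgeR adjusted p 2.93e-04 and 1.10e-06), followed by Fyn at -0.51 and Bmpr2 at -0.46 (edgeR adjusted p 3.58e-04 and 6.49e-04). Tgfbr2 was higher at 0.78 (edgeR adjusted p 0.0282), a call lost with upper-quartile scaling, with protein-coding genes only, and without WT replicate 3 or either week 70 library. With upper-quartile scaling or protein-coding genes only the split was 6 lower and 0 higher, and with the length and GC offset 4 lower and 3 higher, Bmpr2 then being higher at 0.54. In that fit 76.8% of all genes were called, 37.9% lower and 38.9% higher. For the 4 genes that did not pass, the log2 changes and SE were -0.08 and 0.070 for Src, -0.19 and 0.10 for Nos1, -0.18 and 0.206 for Nos3 and -0.23 and 0.232 for Egfr. Src was called lower with the offset, at -0.38 (edgeR adjusted p 0.00757), with upper-quartile scaling, at -0.21, and with protein-coding genes only, at -0.26 (edgeR adjusted p 0.0329 and 0.00920). Nos1 was called in opposite directions: lower with upper-quartile scaling, at -0.32, with protein-coding genes only, at -0.38, and without week 70 replicate 2, at -0.36 (edgeR adjusted p 0.0176, 0.00904 and 0.00800), and higher with the offset, at 0.24 (edgeR adjusted p 0.0418). The SE of Nos3 and Egfr leaves room for a sizeable difference in either direction.

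Over the 8 libraries, the genes with the profile most like each of the 9 were taken from 12804 genes with a mean of at least 50 counts. These profiles too carry no correction for transcript length and GC content. Nos1 had Sobp and Hnrnpul2 nearest, at root mean square differences of 0.0636 and 0.0729 in log2 CPM, where the median gene was at 0.859. Src had Myo18a and Mgat5 at 0.0499 and 0.0607, and Fyn had Lrp12 and Tsc2 at 0.0302 and 0.0340. For Bmpr2 they were Pcbp2 and Brpf3 at 0.0592 and 0.0642, and for Tgfbr1 Hps1 and Kmt2c at 0.0652 and 0.0723. The genes of lower counts had more distant neighbours. Tgfbr2 was followed most closely by Sox18, an endothelial transcription factor, and Tns1 at 0.172 and 0.175, where the median gene was at 1.21. Sox18 itself went from 9.50 CPM in WT to 2.14 in fetal KO and 16.4 at week 70, beside 23.0, 5.25 and 38.5 for Tgfbr2. Erbb2 had Adamts17 and Itga5 at 0.166 and 0.179, Egfr had Pdgfc and Nrros at 0.145 and 0.150, and Nos3 had Tbl3 and Gmppb at 0.152 and 0.153.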

How the data were processed

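Bulk RNA-seq of whole mouse brain gave 1 library per sample, in 3 groups of 3, 3 and 2. The authors deposited raw read counts per Ensembl gene for all 8 libraries, per the file headers; per the submitters' processing notes the tools include FastQC, cutadapt, Trimmomatic, HISAT2, featureCounts and edgeR, and the builds GRCm38 and GRCm39. Which build was counted, the use of strand and the treatment of reads matching several genes are not given in the sources used here, so that counts of overlapping genes or near-identical copies are uncertain. The 351 genes without a symbol stayed in the analysis.

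The test was that of edgeR 4.0.16, run in R 4.3.3 (filterByExpr, TMM scaling, two-sided quasi-likelihood test, Benjamini-Hochberg threshold of 0.05 over all genes tested), with only the groups compared in a fit. CPM are normalised by TMM over all 8 libraries without a filter, whereas each fit was scaled on its own filtered genes and groups. Small differences and overlaps in CPM can therefore part from the log2 changes. Between the KO ages, mean Bmpr2 went from 151.6 to 160.2 CPM with a log2 change of -0.02. The limit that 0 reads allow is 3 counts, 0.144 to 0.213 CPM in these libraries, for counting error only. Transcript length, GC content, exon length and coordinates came from GENCODE M 21 on GRCm38, which matched 97.3% of identifiers, and the offset was a smooth of each library on length and GC (mgcv 1.9.3). Named genes were all 9 genes, related family members, from each list the 2 called genes of smallest adjusted p in each direction, and the 2 nearest profiles of each gene. The 9 genes, the 5 pathway lists, the 11 marker lists and the tests were chosen with earlier results of these data known. Scripts were tested on simulated data. Alternatives were RLE and upper-quartile scaling, other filters, DESeq2 1.42.0, all 8 libraries in 1 fit, the replicate block, the offset, protein-coding genes only and each library left out.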

Additional observations from a re-analysis of the deposited data

How the results depend on the processing

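The log2 changes of the 9 genes were recomputed under each alternative: 362 values kept their direction and side of the threshold, 11 lost a call, 18 gained one and 23 changed sign. Tgfbr1 at day 15 was 0.026 with upper-quartile scaling and 0.007 with protein-coding genes only. Between the KO ages, Nos3 was -0.29 with the length and GC offset and -0.24 with offset and replicate block. Erbb2 was 0.079 with all 8 libraries in 1 fit and between -0.139 and 0.122 with libraries left out. Bmpr2 was 0.081 with all 8 libraries, 0.042 with the replicate block, 1.12 with the offset with or without the block, and between -0.087 and 0.058 with libraries left out. Fyn was -0.089 with upper-quartile scaling, -0.018 with the offset, -0.042 with offset and block and -0.11 with protein-coding genes only. At week 70 against WT, the offset gave 0.24 for Nos1, 0.50 for Egfr and 0.54 for Bmpr2, and with the block added 0.23, 0.50 and 0.52. The cause was not tested. The Nos1 to Nos3 ratio at week 70 against WT, -0.042 on the log2 scale, lay between -0.26 and 0.17 with libraries left out. Without 1 library 8 to 9 of the 9 genes were called at day 15, beside 10998 to 11365 of 19543 to 20141 tested. Leaving out 1 fetal KO library gave 5 to 6 for age, beside 15534 to 15538 of 19721 to 19816 genes tested. With 1 library left at week 70, it was assumed to vary like the others. After centring on the group means, same-numbered WT and day 15 KO libraries had correlations of -0.19, -0.27 and -0.28. Differently numbered ones had correlations of 0.075 to 0.171. With 3 libraries per group such centred values cannot settle whether samples are paired, and the labels do not say what a replicate number shares. With the replicate block 8, 6 and 5 of the 9 genes were called in the 3 comparisons. Over all genes the block gave 11184 called of 19147 at day 15 and 14876 of 20000 for age. Counts of calls in either direction stayed within 1.5 times under the alternatives run, while counts in 1 direction moved more: pathway genes higher at day 15 were 15, 25 with upper-quartile scaling and 23 with protein-coding genes only. Of the 9 genes, those lower for age went from 1 to 2 with upper-quartile scaling, the offset or protein-coding genes only, and those higher at week 70 against WT went from 1 to 3 with the offset and 0 with upper-quartile scaling or protein-coding genes only. A planned search for the caveolin-binding motif in the 9 proteins was not run. Depth limits Nos3, Egfr, Erbb2 and Tgfbr2 most, with as few as 55 counts in a library.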
